A study of Mus musculus with 6 samples.

Results

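Chemokine transcripts of the corneal epithelium were followed in mice that had lost Rela, the gene for the transactivating NF-κB subunit RelA, from cells that use the keratin 14 promoter. The members were 10 secreted or membrane-bound chemokines chosen by gene symbol: Cxcl1, Cxcl2, Cxcl5, Cxcl10, Cxcl12, Cxcl14, Cxcl16, Ccl2, Ccl20 and Cx3cl1. Of these, 9 were among the 17554 genes of the table, and Ccl20, the ligand of Ccr6, was not analysed here. Corneal epithelium was removed from C57BL/6 mice at 2 months of age, and its RNA was sequenced in bulk from 3 samples labelled wild type (control) and 3 labelled Rela-/- (mutant), whose genotype in the methods is Krt14-Cre; Rela f/f. The keratin 14 promoter is active in the basal layer of many stratified epithelia, so the deletion need not be restricted to the cornea in this model. The labels do not say whether a sample came from 1 mouse or from several, and the p-values measure the spread between these samples only.

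Chemokines are small proteins that guide the movement of leukocytes through receptors coupled to G proteins. CXC chemokines that carry the glutamate-leucine-arginine (ELR) motif, such as Cxcl1, Cxcl2 and Cxcl5, act on Cxcr2 and draw neutrophils, whereas Cxcl10 acts on Cxcr3, Cxcl12 on Cxcr4, Ccl2 on Ccr2, and Cxcl16 and Cx3cl1 are made as membrane-anchored proteins that bind Cxcr6 and Cx3cr1. Several of these genes are textbook targets of NF-κB, and in the cornea they are known for the recruitment of leukocytes after injury and infection.

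Because the genotype concerns a transcription factor that binds κB sites, promoter sequences are shown for the members whose windows held a match to the κB consensus and whose expression was measured, together with the neighbouring Cxcl3, which is discussed later, and with Cx3cl1, which had no match. RefSeq windows of 250 bases before the transcription start were available for 7 of the 10 members, and matches on both strands were counted. All positions are in GRCm38.p6, sequences run from 5′ to 3′ along the gene, and capitals mark the match to the κB consensus. The lines end before the earliest start annotated in RefSeq or GENCODE.
Cxcl1, chr5:90891125-90891240, plus strand: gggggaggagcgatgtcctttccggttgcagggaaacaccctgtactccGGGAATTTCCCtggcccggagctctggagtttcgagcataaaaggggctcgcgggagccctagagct
Cxcl2, chr5:90903779-90903870, plus strand: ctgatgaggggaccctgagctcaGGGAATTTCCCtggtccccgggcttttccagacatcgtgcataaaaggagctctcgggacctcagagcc
Cxcl3, chr5:90785981-90786100, plus strand: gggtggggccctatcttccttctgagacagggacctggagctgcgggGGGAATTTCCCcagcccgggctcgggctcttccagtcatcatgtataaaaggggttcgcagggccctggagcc
Cxcl10, chr5:92348890-92349069, minus strand: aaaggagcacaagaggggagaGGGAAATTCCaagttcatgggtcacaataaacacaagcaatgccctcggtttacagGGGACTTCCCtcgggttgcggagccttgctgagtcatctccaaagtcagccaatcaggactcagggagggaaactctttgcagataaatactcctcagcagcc
Cx3cl1, chr8:94771930-94772008, plus strand: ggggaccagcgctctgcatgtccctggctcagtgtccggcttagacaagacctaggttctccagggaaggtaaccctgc

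The same 11 bases, GGGAATTTCCC, stood in the Cxcl1, Cxcl2 and Cxcl3 windows, where they matched the consensus on both strands with an overlap. Their first base lay 71 bases before the RefSeq start in Cxcl1, 97 in Cxcl2 and 73 in Cxcl3. The match and 25 bases on each side of it, 61 in all, were compared position by position without gaps. Of these, 30 were identical between Cxcl1 and Cxcl2, 28 between Cxcl1 and Cxcl3, and 24 between Cxcl2 and Cxcl3. These counts include the 11 bases of the match, which are identical by definition, and stretches shared at a shifted position are not counted. Cxcl10 held 2 matches, which began 159 and 103 bases before its start, and Ccl20 held 1, which began 80 bases before its start on the opposite strand. A match to this consensus occurred in 3.9% of the 32817 distinct RefSeq windows. No κB match was found in the windows of Cxcl12, Cxcl14, Cx3cl1 or Ppbp, and the Cxcl14 window is not printed because nearly all of it lies inside the gene as the deposited table bounds it. Of the Cx3cl1 window only the 79 bases printed lie before the earliest annotated start, and the other 171 lie after it.

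**Figure D1:**
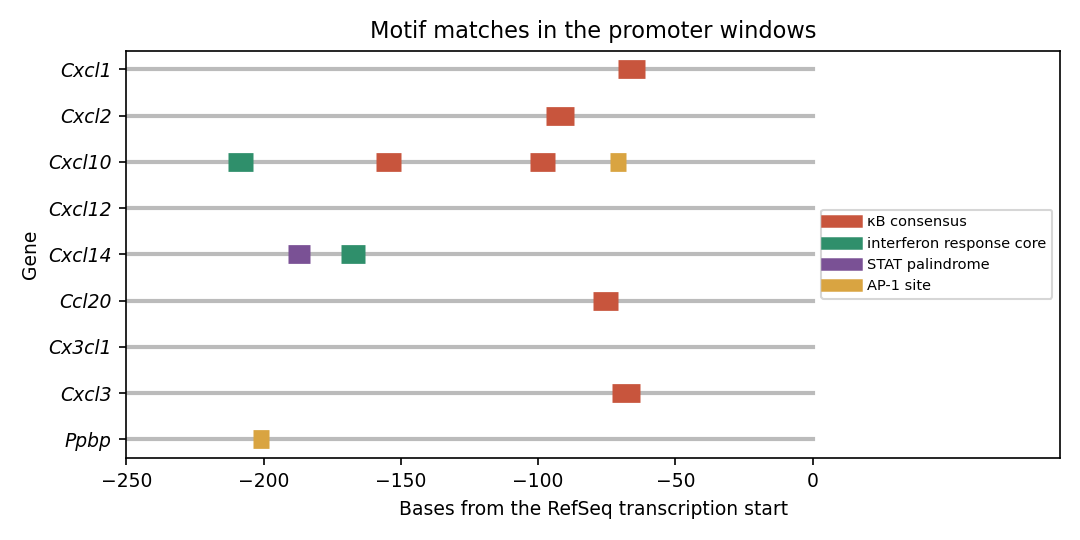
Positions of motif matches (coloured blocks) in the 250 bases before the RefSeq transcription start of 7 members and of Cxcl3 and Ppbp, on an axis of bases from the start. The κB match was found in Cxcl1, Cxcl2, Cxcl10, Ccl20 and Cxcl3, and no motif of the 4 was found in Cxcl12 or Cx3cl1. Only 79 bases of the Cx3cl1 window lie before the earliest annotated start.

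Other motifs, 3 in number, were searched in the same windows, each on both strands. The interferon response core, GAAA repeated after a gap of 2 bases and found in 2.97% of all windows, was present in Cxcl10 from 213 and in Cxcl14 from 172 bases before the start. The palindrome TTCNNNGAA, a general form of STAT sites that 7.01% of windows held, was present in Cxcl14 from 191 bases before the start, and the AP-1 site TGANTCA, with a share of 6.75%, in Cxcl10 from 74 and in Ppbp from 204 bases. None of the matches to different motifs overlapped. Positions count from the RefSeq start, and the Cxcl14 window lies nearly all inside the gene, as said above. These are matches of letters and no binding was measured in these samples.

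The samples were of near-equal depth, with 19492942 to 19733834 expected counts each, so that 3 counts corresponded to 0.152 to 0.154 counts per 1000000 of the library (CPM). Rela was checked first. It had 1799, 1672 and 1614 expected counts in the control samples against 230, 260 and 270 in the mutant samples, and its log2 fold change was -2.75 (SE 0.08, adjusted p = 5.5e-07). This and every adjusted p that follows came from the quasi-likelihood test of edgeR, adjusted by Benjamini-Hochberg over all genes tested. The tissue label was checked against corneal epithelial markers: Krt12, the cornea-specific keratin, was among the abundant transcripts in every sample and showed a log2 fold change of -0.15 (adjusted p = 0.26), Krt5, Pax6 and Tkt also did not pass (adjusted p = 0.59, 0.19 and 0.065), Aldh3a1, a corneal crystallin, fell (log2 fold change -0.25, adjusted p = 0.047), and Krt14 rose by 3.32 (adjusted p = 1.1e-05). Of the 6 markers, 4 had all mutants below all controls, as did 16.4% of all genes tested. In the principal components of all samples the genotypes separated on the first, which held 65.7% of the variance, and mutants 1 and 3 lay at opposite ends of the second, which held 11.6%.

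Among the 9 members, 4 had enough counts to be tested, and all 4 passed an adjusted p of 0.05. Cxcl1, Cxcl14 and Cxcl16 rose and Cx3cl1 fell. Of the 12667 genes tested, 13.2% passed, 7.82% as higher and 5.42% as lower in the mutants. Cxcl1 entered the test only through its mutant counts, so the tally of members past the threshold is a description and not a test of the family. With the stricter cut-offs of the study, a fold of 2 or more together with an adjusted p no higher than 0.001, only Cxcl14 was called, as higher, against 1.37% of all genes (1.31% higher and 0.0553% lower), and that call was lost with the replicate block, with upper-quartile scaling and whenever a sample was left out. The calls depended on single samples. Of the 4 genes, only Cxcl14 passed 0.05 without control 1 or without control 2. Without mutant 2, Cxcl16 (adjusted p = 0.069) and Cx3cl1 (adjusted p = 0.072) were lost, while Cxcl2 entered the test and passed (adjusted p = 0.031). Without mutant 3, Cxcl16 was lost (adjusted p = 0.10), while Cxcl5 entered and passed (adjusted p = 0.003).

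**Figure D2:**
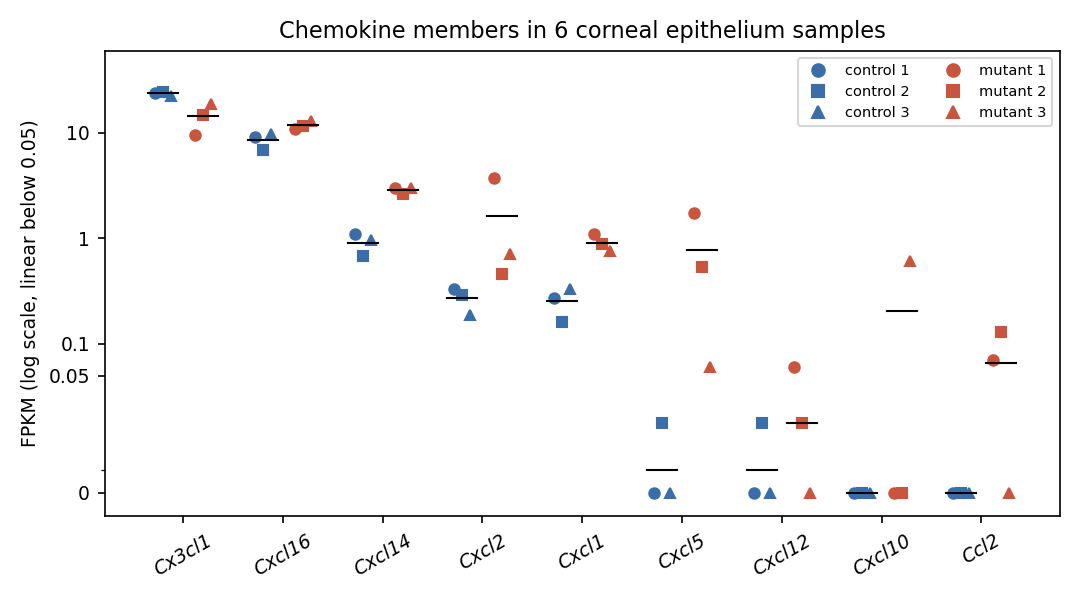
FPKM of the 9 listed members in each of the 6 samples (symbols, with the group mean as a bar), on an axis that is logarithmic above 0.05 and linear below. The mutant samples lay above the control samples for Cxcl1, Cxcl2, Cxcl5, Cxcl14 and Cxcl16 and below them for Cx3cl1, and mutant 1 stood above the other mutants for Cxcl2 and Cxcl5.

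The levels of the members spanned a wide range. On the FPKM scale, which corrects for transcript length, the control order was Cx3cl1 with 23.7 ± 1.19 (mean ± SD, n = 3), Cxcl16 with 8.62 ± 1.5, Cxcl14 with 0.913 ± 0.214, Cxcl2 with 0.270 ± 0.072 and Cxcl1 with 0.253 ± 0.086. The neighbours Cxcl2 and Cxcl1 overlapped, and the remaining 4 listed members were at 0.03 FPKM or less in every control sample. In the mutants the order of the upper 2 was no longer separated, since Cx3cl1 was at 14.3 ± 4.58 and Cxcl16 at 11.9 ± 1.12. Summed over the 9 members, FPKM was 33.7 ± 1.10 in the controls and 32.7 ± 3.64 in the mutants, and the groups overlapped (exact two-sided permutation test, p = 0.7; the smallest p that 3 against 3 samples allow is 0.1).

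Cx3cl1 encodes fractalkine, whose chemokine domain sits on a mucin stalk at the cell membrane. It had 24.12, 24.55 and 22.30 FPKM in the controls, and 9.51, 14.89 and 18.62 FPKM in mutants 1, 2 and 3. Every mutant lay below every control, but the mutants differed 1.91-fold among themselves. The log2 fold change was -0.73 (SE 0.19, adjusted p = 0.031), a 1.65-fold lower level in the mutants. The call was lost in 4 of the 6 fits that left out 1 sample, where the adjusted p reached 0.11, and the log2 fold change lay between -0.95 and -0.51 over all 14 alternatives.

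Cxcl16, the other membrane-anchored chemokine, is also known as a scavenger receptor. Its FPKM was 9.06, 6.95 and 9.84 in the controls and 10.89, 11.63 and 13.09 in the mutants. The groups did not overlap, although control 3 and mutant 1 were close. The log2 fold change was 0.52 (SE 0.14, adjusted p = 0.038), and 6 of the 14 alternatives put the adjusted p above 0.05, up to 0.14. In the GENCODE annotation 18.3% of the exonic bases of Cxcl16 overlap Zmynd15 on the opposite strand. Zmynd15 had 9 to 16 expected counts per sample against 263 to 541 for Cxcl16.

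The pair can also be given as a ratio within each sample, which had to separate the groups because of the values above and is given as a description. The ratio of Cxcl16 to Cx3cl1 in FPKM was 0.376, 0.283 and 0.441 in the controls and 1.15, 0.781 and 0.703 in the mutants. The means were 0.367 ± 0.079 and 0.876 ± 0.236. In mutant 1 the usual order was inverted, with Cxcl16 above Cx3cl1. Cx3cl1 made up 70.2% ± 4.48 of the summed FPKM of the members in the controls and 43.3% ± 10.2 in the mutants.

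Cxcl14 is a homeostatic chemokine of epithelia. It had 39, 24 and 34 expected counts in the controls and 106, 94 and 108 in the mutants, or 1.10, 0.68 and 0.96 FPKM against 2.99, 2.66 and 3.03. The mutants were tightly grouped and all lay above the controls. The log2 fold change was 1.66 (SE 0.21, adjusted p = 9.2e-04), a 3.15-fold higher level, and it passed 0.05 in all 14 alternatives with values from 1.03 to 1.80. In contrast to Cxcl2 and Cxcl5, described below, its levels in the mutants differed by only 1.13-fold between the highest and the lowest sample.

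The 3 ELR members were scarce in the controls. Cxcl1, the main mouse ligand of Cxcr2 besides Cxcl2, had 5, 3 and 6 expected counts in the controls and 20, 16 and 14 in the mutants. The groups did not overlap, and the mutants differed 1.48-fold among themselves. The log2 fold change was 1.80 (SE 0.40, adjusted p = 0.016), a 3.49-fold higher level, which was no longer past 0.05 without control 1 (adjusted p = 0.057) or without control 2 (adjusted p = 0.079).

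Cxcl2, the other neutrophil attractant of the macrophage inflammatory protein family, had 7, 6 and 4 expected counts in the controls and 77.48, 9.57 and 14.82 in the mutants. Mutant 1 was far above the others, and mutant 2 was only slightly above the highest control. Summed over samples and scaled to depth, the ratio of mutant to control was 5.98 (95% interval 3.56 to 10.7, covering counting error only) and 2.13 without mutant 1. Cxcl2 did not reach the minimum count of the test. In a fit with no filter on counts its log2 fold change was 2.56 (SE 0.72, adjusted p = 0.042), and without mutant 1, where it entered the standard fit, it was 1.11 (adjusted p = 0.16). Of the 50-base windows of its GENCODE transcripts, 5.84% also occur in Cxcl3, so that some reads could be assigned to either gene.

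Cxcl5 had 0, 1.01 and 0 expected counts in the controls and 56, 17.23 and 2.02 in the mutants. All mutants lay above all controls, but mutant 3 was under the level of 3 counts, and the mutants differed 28.7-fold. The ratio over summed counts was 74.7 with a wide interval of 13.0 to 2990, and 28.8 without mutant 1. Cxcl5 did not pass the filter either. With no filter its log2 fold change was 5.78 (SE 1.30, adjusted p = 0.013). The adjusted p was above 0.05 when any of the controls was left out, between 0.094 and 0.13, and 0.003 without mutant 3.

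Together 5 of the 9 listed members had CPM values in all mutants above all controls and 1 had them below. Among all tested genes 17.3% lay wholly above and 16.4% wholly below. Cxcl2 and Cxcl5 are part of this tally but not of the tested genes.

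The remaining members were at the limit of detection. Cxcl10, the interferon-inducible ligand of Cxcr3, had 0 counts in every control and in mutants 1 and 2, and 13 counts (0.61 FPKM) in mutant 3, so its only signal came from a sample in which the ELR chemokines were lowest or near lowest. With no filter its log2 fold change did not pass (adjusted p = 0.20). Cxcl12, the stromal ligand of Cxcr4 and Ackr3, had 0, 1 and 0 counts in the controls and 3, 1 and 0 in the mutants. Ccl2, the monocyte attractant, had 0 counts in all controls and 1, 2 and 0 in the mutants. At a level of 3 counts or fewer in each sample no difference could be detected for either gene.

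The genomic neighbours of the ELR members were then examined. Cxcl5, Cxcl1 and Cxcl2 lie on the plus strand of chromosome 5 in a span of 147 kb that held 7 genes of the table, all chemokines. Cxcl5 is at chr5:90759298-90761625, Cxcl1 at chr5:90891245-90893121 and Cxcl2 at chr5:90903899-90905938. Between them lie Ppbp, Pf4, Cxcl3 and Cxcl15. The ligands Ppbp and Cxcl3 also carry the ELR motif and act on Cxcr2.

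Ppbp, known from platelets as pro-platelet basic protein, had 1, 2 and 1 counts in the controls and 725, 303 and 113 in the mutants. The mutants lay far above the controls and differed 6.65-fold, with mutant 1 the highest and mutant 3 the lowest. The ratio over summed counts was 284 (95% interval 111 to 1045, counting error only) and 156 without mutant 1, and the adjusted p was 8.9e-04. Pf4, the other platelet chemokine, had 0 counts in all controls and 5, 2 and 0 in the mutants.

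Cxcl3 had 0 counts in every control and 123.52, 22.43 and 20.18 in the mutants. Against a floor of 3 counts per control library this was at least 18.5-fold higher, and at least 7.03-fold higher without mutant 1. With all 6 samples the adjusted p was 0.015, and it was 0.059 without control 2. Ppbp and Cxcl3 both entered the test only through their mutant counts. Cxcl15, which lies between Cxcl3 and Cxcl1, had at most 5.25 counts in any sample, and its groups overlapped. Of the genes that flank the span, Mthfd2l fell (log2 fold change -0.37, adjusted p = 0.04), whereas Rassf6, at -0.13, did not pass (adjusted p = 0.52). Beyond Mthfd2l, Ereg fell (-0.58, adjusted p = 0.042) and Epgn did not pass (0.21, adjusted p = 0.39). Areg did not pass either (0.55, adjusted p = 0.096), although all its mutants lay above all its controls.

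**Figure D3:**
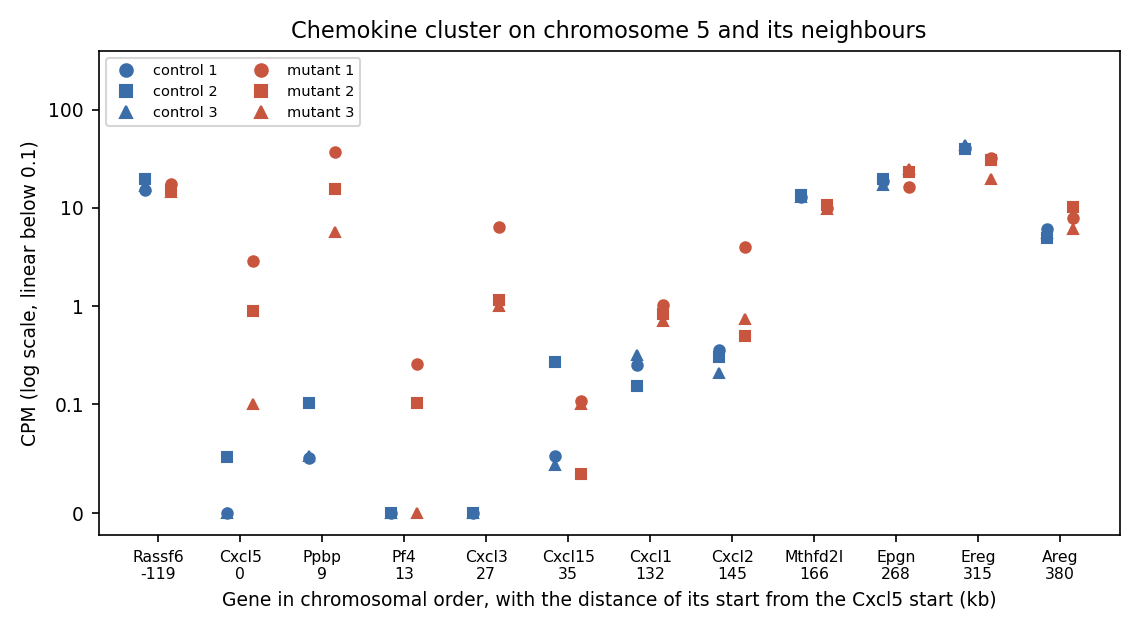
CPM of each sample for the genes of the chromosome 5 chemokine cluster and the genes beside it, in chromosomal order with the distance of each start from the Cxcl5 start in kb, on an axis that is logarithmic above 0.1 and linear below. All mutants lay above all controls for Cxcl5, Ppbp, Cxcl3, Cxcl1, Cxcl2 and Areg. They lay below all controls for Mthfd2l and Ereg, whereas Rassf6, Pf4, Cxcl15 and Epgn overlapped.

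Because Cxcl1, Cxcl2, Cxcl3, Cxcl5 and Ppbp act through the same receptor, their counts were summed. The 5 genes were chosen for this sum after their values were seen, so it is a description. Cxcl15 of the same span was left out. It had 1.04, 5.25 and 0.84 counts in the controls and 2.06, 0.70 and 2.00 in the mutants. Cxcl1, Cxcl2, Cxcl3, Cxcl5 and Ppbp together had 13, 12.01 and 11 counts in the controls and 1002, 368 and 164 in the mutants. Ppbp alone supplied most of the mutant sum, and the 3 members had 12, 10.01 and 10 counts in the controls and 153, 42.8 and 30.8 in the mutants.

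Over all 31 other chemokine ligands considered, 22 were in the table and 7 could be tested. Of these, 3 rose (Ppbp, Cxcl3 and Ccl28), none fell, and the median log2 fold change was 0.21, against -0.0028 over all genes tested. The share of all tested genes that rose was 7.82%. Without Ppbp and Cxcl3, which had fewer than 10 counts in every control, the median of the other 5 was 0.01 and 1 rose. Ccl28, a mucosal epithelial chemokine, had 17.17, 17.67 and 17.06 counts in the controls and 50.22, 40.58 and 24.21 in the mutants, a log2 fold change of 1.14 (SE 0.32, adjusted p = 0.045) that was lost in 8 of the 14 alternatives. The skin chemokine Ccl27a and Ccl25, Cxcl9 and Ccl9 did not pass, with adjusted p-values of 0.42 or more. The macrophage inflammatory proteins Ccl3 and Ccl4 were absent from the control counts, with 33, 8 and 2 and with 27, 2 and 5 counts in the mutants. They were not tested, and mutant 1 was again the highest. These genes other than the named ligands were chosen after their values were seen.

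**Figure D4:**
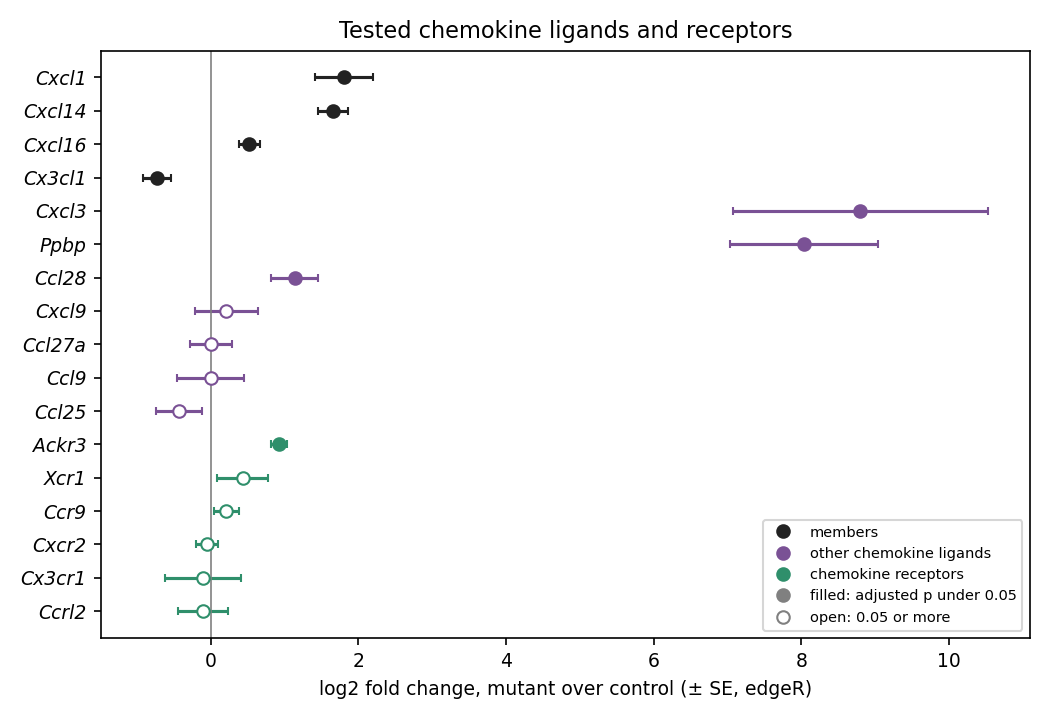
Log2 fold change of mutant over control with its standard error (edgeR) for the 4 tested members, 7 tested other ligands and 6 tested receptors; filled symbols had an adjusted p under 0.05. Cx3cl1 was the only gene of the 17 that passed as lower, and the fitted values of Cxcl3 and Ppbp depend on the prior count because the controls were at or near 0.

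The receptors of the members were largely at the limit of detection. Of 24 receptors considered, 21 were in the table, 6 could be tested and 1 rose, where 13.2% of all tested genes passed. That was Ackr3, the atypical receptor that scavenges Cxcl12. It had 332, 329 and 306 counts in the controls and 684, 623 and 535 in the mutants, a log2 fold change of 0.93 (SE 0.11, adjusted p = 7.2e-04) that passed 0.05 in all 14 alternatives. Its ligand Cxcl12 had at most 3 counts in any of these samples.

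Cxcr2, the receptor of the ELR ligands, had between 104 and 118 counts in the controls and between 96.4 and 121 in the mutants, and its groups overlapped (log2 fold change -0.05, SE 0.15, adjusted p = 0.87). Cx3cr1, the receptor of Cx3cl1, had 15.13, 9.91 and 5.05 counts in the controls and 3.83, 10.18 and 14.09 in the mutants and also overlapped (log2 fold change -0.10, SE 0.52, adjusted p = 0.92). Cxcr4 had at most 2 counts in any sample, Cxcr3 and Cxcr6 had at most 1 in a control and at most 5 in a mutant, and Ccr2 had 0.99 to 8.50 counts across all samples with overlapping groups. None of these 4 was tested, and Ccr6 was not analysed here.

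Leukocytes are themselves a source of chemokine transcripts, and their markers were therefore set beside the ELR ligands. In bulk samples, fewer cells of a type and less RNA per cell cannot be told apart. The summed CPM of 8 general leukocyte markers was 2.09 to 2.87 in the controls and 4.14 to 7.6 in the mutants, with mutant 1 the highest. Of the 3 markers that could be tested, Laptm5 and Lcp1 rose (adjusted p = 0.045 and 0.043), where 7.82% of all tested genes rose. Laptm5 had 6 to 10 counts in the controls and 16 to 29 in the mutants, and Lcp1 had 8 to 13 and 17 to 35. Neither would have entered the test on its control counts alone, so these calls are a description. Ptprc, which encodes CD45, had 6, 6 and 1 counts against 14, 2 and 9, and its groups overlapped.

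Of the 8 neutrophil markers 6 were in the table, and none of the 4 tested passed. Their summed CPM ranged from 33.9 to 61.0 in the controls and from 36.5 to 147 in the mutants, and most of it came from Ltf, a gene that glandular epithelia also express. The granule genes Mpo and Retnlg had at most 1 count in any sample, and Cxcr2, described above, is on this list too. Macrophage and monocyte markers summed to 22.5 to 29.0 CPM in the controls and 29.6 to 35.0 CPM in the mutants. Of 3 tested, C1qb rose (adjusted p = 0.043), where 7.82% of all tested genes rose. It had 6 counts in every control and 12 to 17 in the mutants, through which alone it entered the test. Neither of the other 2 tested passed. Lyz2 had 0, 0 and 1 counts against 23.7, 13 and 3.79. The order of the mutants for Lyz2 was that of Ppbp and Cxcl5.

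Markers of Langerhans and dendritic cells summed to 5.83 to 7.75 CPM in the controls and 7.55 to 11.9 in the mutants, T-cell markers to 0.618 to 1.25 and 1.03 to 1.53, and endothelial markers to 3.63 to 7.68 and 3.46 to 4.44, and none of their tested genes passed. Most of the endothelial sum came from Tie1, with 68 to 137 counts in the controls and 53 to 72 in the mutants, whereas Pecam1 had 2 to 5 counts in the controls and 7 to 14 in the mutants and was not tested. The 6 keratocyte and fibroblast markers had 0.261 to 0.605 CPM in the controls and 8.53, 4.89 and 1.35 CPM in mutants 1, 2 and 3. Dcn, the single tested gene of that list, had 1 to 3 counts in the controls and 14 to 66 in the mutants, through which alone it entered the test (adjusted p = 0.0051), while the defining keratocyte gene Kera had at most 2 counts in any sample. Conjunctival markers summed to 2246 to 2629 CPM in the controls and 1663 to 1975 in the mutants, with Krt13 lower (adjusted p = 0.015) and the goblet cell gene Muc5ac at 0 or 1 count. Melanocyte and Schwann cell markers gave no call. The part of leukocytes or stromal cells in the ELR values was not tested.

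**Figure D5:**
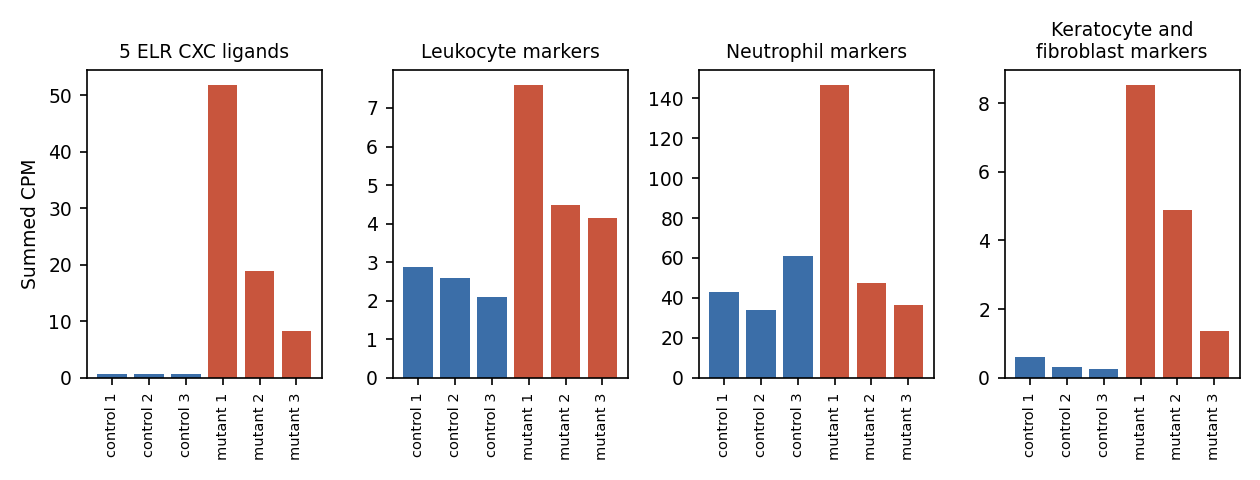
Summed CPM of 5 ELR CXC ligands, 8 general leukocyte markers, the listed neutrophil markers and 6 keratocyte and fibroblast markers in each sample (bars, each panel with its own scale from 0). Mutant 1 had the highest bar in every panel, and the mutants fell in the same order, 1, 2 and 3, in all 4. Most of the neutrophil sum came from Ltf, and Cxcr2 of that list was lowest in mutant 1. Of the lists not drawn, the macrophage, conjunctival and melanocyte sums also fell in that order. The sums for corneal epithelium, Langerhans and dendritic cells, T cells, endothelium and Schwann cells did not.

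The pathway upstream of these genes was considered next. Of 26 receptors, adaptors and kinases that lead from cytokines and Toll-like receptors to NF-κB, 25 were tested, 3 rose and none fell, which is 12% against 13.2% of all genes, and the median log2 fold change was 0.11. Ifngr1, a chain of the interferon-γ receptor, rose by 1.51 (adjusted p = 7e-05). Tnfrsf1a, the TNF receptor, rose by 0.84 (adjusted p = 6.6e-04), and the adaptor Myd88 rose by 0.32 (adjusted p = 0.031), a call lost in 5 of the 6 fits without 1 sample, up to an adjusted p of 0.12. The kinases Chuk, Ikbkb and Ikbkg of the IκB kinase complex did not pass (adjusted p of 0.52 or more).

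Among 30 other genes known as NF-κB targets, 28 were in the table and 23 were tested. Of these, 12 rose, 4 fell and 7 did not pass, with a median log2 fold change of 0.55. Over all tested genes 7.82% rose and 5.42% fell. Of the tested genes, 5 had fewer than 10 counts in every control and entered through the mutants (Il1b, Csf3, Ptgs2, Lcn2 and Saa3, named after their values were seen). Among the other 18, 7 rose and 4 fell, with a median of 0.45, and with at least 10 counts required in every sample 6 rose and 4 fell. Icam1, named after its values were seen, is among these 18 but had only 0 to 11 counts in the controls. It too was tested because of its mutant counts, which were 15 to 37. Bcl3, a nuclear IκB protein, rose by 1.85 (adjusted p = 7.6e-05), and Tslp, an epithelial cytokine, by 1.99 (adjusted p = 0.003). Ptgs2, the inducible cyclooxygenase, had 3, 1 and 0 counts in the controls and 670, 133 and 575 in the mutants, and its adjusted p of 4.6e-04 carries the same limit. Tnfaip3, which encodes the feedback inhibitor A20, fell by 1.04 on the log2 scale (adjusted p = 0.0034). The others that fell, named after their values were seen, were Tnf (log2 fold change -1.73), Nfkbia (-0.34) and Sod2 (-0.29). Members of this group and of the chemokine family thus lay on both sides of 0.

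Finally, genes that act on chemokine proteins and transcripts were examined. Adam10 and Adam17 encode the proteases that shed Cx3cl1 and Cxcl16 from the membrane. Adam10 had 23.05, 22.73 and 20.75 FPKM in the controls and 30.18, 27.91 and 26.43 in the mutants, and rose by 0.34 (SE 0.08, adjusted p = 0.022). Adam17 had 20.69, 20.87 and 19.81 FPKM against 28.04, 25.26 and 23.88, and rose by 0.33 (SE 0.08, adjusted p = 0.029). For both genes the mutants lay above the controls, and both calls were lost in 4 of the 14 alternatives.

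Of the 14 genes of this list, all tested, 4 rose and none fell, with a median log2 fold change of 0.10, where 7.82% of all genes rose. The count was 2 in 4 of the 6 fits without 1 sample. The other 2 act on mRNA stability. Zc3h12a, which encodes the ribonuclease regnase-1 that degrades inflammatory transcripts, rose by 0.99 (SE 0.10, adjusted p = 3.1e-04), and Zfp36l2, which encodes a protein that binds AU-rich elements, rose by 0.54 (adjusted p = 0.0089). These values describe transcripts only, and neither shed chemokine nor transcript decay was measured.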

How the data were processed

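Bulk RNA-seq was available for 6 samples, grouped by the genotype in their labels. The authors filtered single-end 50-base reads with SOAPnuke, aligned them to the mouse genome, per their methods, with Bowtie2 2.2.5 and deposited RSEM 1.2.12 expected counts per gene, which are neither normalized nor pooled. The authors also deposited FPKM values, which RSEM scales by transcript length and library total. The deposited group means, and the log2 fold changes, p-values and q-values of the authors' DEGseq comparison, were not used. The submitters' notes name mm9, whereas the chromosome accessions in the table are those of GRCm38, which is given here. The table lists genes with a count in at least 1 sample. The strand setting of the counting is not given in the sources used here, and the library kit is named differently in the labels and the methods.

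Expected counts were rounded to whole numbers and fitted in edgeR 4.0.16 (R 4.3.3) by quasi-likelihood with genotype as factor, after TMM scaling and filterByExpr (min.count 10, min.total.count 15), with Benjamini-Hochberg adjustment over the 12667 genes tested. CPM used TMM-scaled library sizes. Standard errors are the log2 fold change over the root of the F statistic. Intervals of count ratios are exact 95% intervals and cover counting error only, as does the floor of 3 counts. Promoter windows came from RefSeq GRCm38.p6 and exon overlaps and 50-base windows from GENCODE M21. The alternatives were DESeq2 1.42.0, upper-quartile or RLE scaling, omission of the filter, a filter of 10 counts in each sample, limma 3.58.1 on log2(FPKM + 1) and log2(FPKM + 0.1), a replicate block and each sample left out. The scripts were tested on simulated data.

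The members and lists were chosen with earlier results of these data known. The text names all members, Rela, the receptors of the members, Adam10, Adam17 and up to 4 genes per list with the smallest adjusted p at or under 0.05. Further genes are cell type markers, genes beside or overlapping a member, and those said to be chosen after their values were seen.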

Additional observations from a re-analysis of the deposited data

How the results depend on the processing

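Of the 12667 genes tested, 1678 passed an adjusted p of 0.05, and 857 to 1869 did so when 1 sample was left out, the fewest without control 2. Members past 0.05 numbered 4, and 1 to 4 without 1 sample each. The single member past the study's thresholds was lost with the replicate block (0), with upper-quartile scaling (0) and in every fit that left out 1 sample (0 to 0), where Cxcl14 itself still passed 0.05. Other ligands past 0.05 went from 3 to 1 when at least 10 counts were required in every sample and to 5 with no filter, and ranged from 1 to 3 without 1 sample each. NF-κB targets past 0.05 went from 16 to 10 with at least 10 counts in every sample and ranged from 9 to 16 without 1 sample each, and the shedding and decay genes went from 4 to between 2 and 5. The filter changes which genes are tested, and the causes of the other changes were not tested. The log2 fold change of Cxcr2 lay between -0.13 and 0.029 without 1 sample each, above 0 without mutant 1, and that of Cx3cr1 between -0.49 and 0.29, above 0 without control 1 (0.29) or mutant 1 (0.25), none past the threshold.

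The replicate numbers did not pair the samples: the deviations of same-numbered samples from their group means correlated at 0.02, 0.05 and -0.05, and control 3 correlated best with mutant 1. With the replicate block 4 members and 2 other ligands passed 0.05, against 1419 of all genes. Counts of 3 or fewer limit what can be said of Cxcl12 and Ccl2, and the Cxcl2 ratio of mutant to control was 5.98 with mutant 1 and 2.13 without it.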
